A study of Mus musculus with 7 samples.

Results

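A set of 45 genes of glycolysis, pyruvate use, the tricarboxylic acid (TCA) cycle and the oxidative pentose phosphate branch was followed in mini-oocytes, oocyte-like cells made in a dish from mouse embryonic stem cells. The set is a list of gene symbols whose rule uses no measured value, though it was drawn up with earlier results of these data known, and all 45 were found among the 55364 genes listed. RNA-seq covered 7 libraries in 3 groups. D7 4F was made of mini-oocytes at day 7 of induction with 4 transgenic factors (Nobox, Figla, Tbpl2 and Lhx8) and had 2 libraries, each from a pool of 1000 cells. D21 4F had the same factors at day 21 and 3 libraries, each from a pool of 10 cells. D21 8F had 8 factors, the former ones plus Stat3, Dynll1, Sub1 and Sohlh1, at day 21, with 2 libraries of 10 cells each. All groups descended from one female embryonic stem cell line, BVSC H18, which the labels give as hybrid 129/C57BL6, and no ovarian somatic cells were added to the culture. The paper treats 4F and 8F cells as separate derived lines and describes its 8F cells as bearing an Npm2-mCherry reporter. Derived line and factor set therefore cannot be told apart. The transgenic factors were held stable by the ligand Shield-1, which was left out of fresh medium from day 12, and all cultures received stem cell factor and the kinase inhibitor Y-27632. Day, the number of cells pooled and the supply of fresh Shield-1 changed together between D7 and D21 and cannot be told apart. No D7 library of 8F cells was analysed here.

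Glycolysis splits glucose into pyruvate in the cytosol. Pyruvate is then either exchanged with lactate by lactate dehydrogenase or taken into mitochondria, where the pyruvate dehydrogenase complex turns it into acetyl-CoA for the TCA cycle. In the ovarian follicle the oocyte uses glucose poorly and burns pyruvate that the surrounding granulosa cells deliver, and mouse oocytes are known for a lactate dehydrogenase made almost wholly of the B subunit and for abundant glucose-6-phosphate dehydrogenase.

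Estimated reads on genes ran from 9506135 to 18027834 per library, and for a gene whose exons span 1 kb, 3 reads came to between 0.515 and 0.764 TPM, the unit of level used throughout, which scales reads by exon length and by library. The 10 oocyte markers checked summed to 10597 and 13318 TPM at D7 4F, to between 44286 and 48528 TPM at D21 4F, and to 33062 and 33623 TPM at D21 8F. The 11 granulosa markers summed to 8.45 to 27.0 TPM, with 6 of them reaching 1 TPM in any library. Esr2 ranged from 1.82 to 19.515 TPM over all libraries. Kitl was at 11.036 and 7.03 TPM at D7 4F and at 1.936 to 4.874 TPM at D21. The highest values of Foxl2, Hsd17b1, Fshr and Cyp19a1 were 2.688, 2.55, 2.526 and 1.644 TPM. Inha was at 0 in all 7 libraries and Amh at most 0.318 TPM. The 8 pluripotency markers summed to 63.2 to 94.0 TPM, with Nanog at most 0.940 TPM. Esrrb was at 3.92 and 12.3 TPM at D7 4F and at 27.6 to 44.3 TPM at D21, and Zfp42 at 20.6 and 21.9 against 4.42 to 8.75 TPM. Klf4 ranged from 12.2 to 26.5 TPM and Tfcp2l1 from 13.9 to 24.7 TPM over all libraries. The 10 most abundant genes held 28.5% and 31.8% of all TPM at D7 4F but 10.2% to 14.0% at D21, and their part in the day comparison was not tested beyond the rescalings given with it. Nothing in the labels says that replicates were separate cultures, so the p-values measure the spread between these libraries, which may be technical. In pooled RNA, fewer cells of a kind and less RNA per cell cannot be told apart.

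Ldhb, the gene of the lactate dehydrogenase B subunit, was the highest member in every library. At D21 it was followed by G6pdx, the X-linked glucose-6-phosphate dehydrogenase that opens the pentose phosphate pathway. Without Ldhb the other 44 members summed to 1756 and 1895 TPM at D7 4F, to 2372, 2483 and 2521 TPM at D21 4F, and to 2371 and 2356 TPM at D21 8F. Eno2, the neuronal enolase, was at 0.271 TPM (5 reads) in 1 library and listed at 0 in the other 6. Slc16a3, a lactate exporter of glycolytic cells, stayed at or below 1.51 TPM. Eno2 and Slc16a3 were the members that did not pass the filter of 1 TPM in at least 2 libraries, which left 43 members among the 21780 genes tested.

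**Figure D1:**
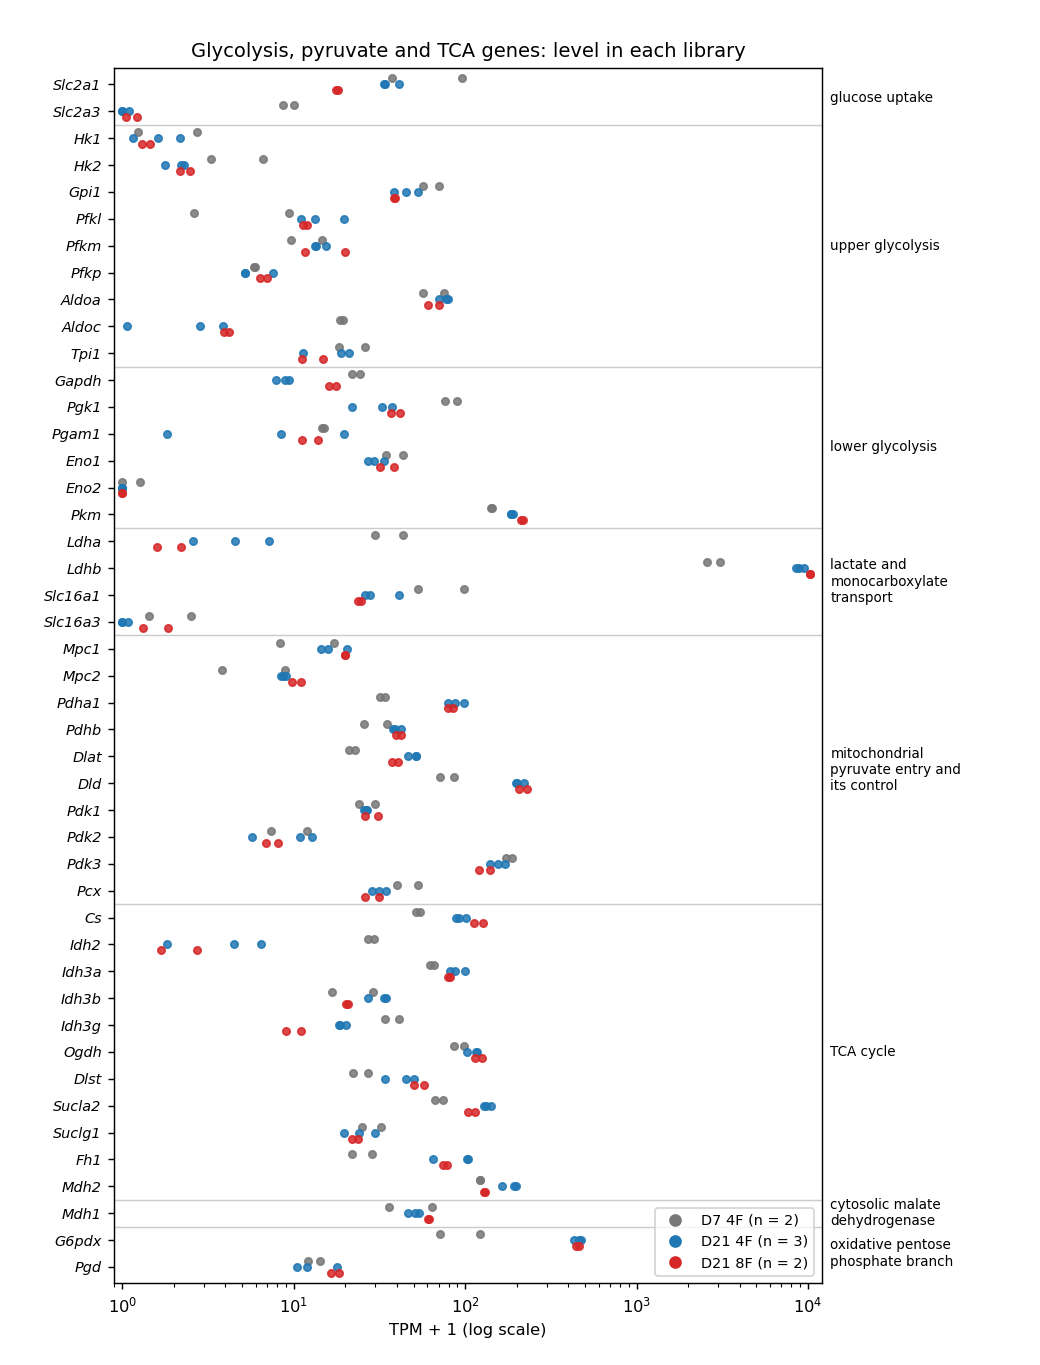
Level of each of the 45 genes (rows, grouped by role) in each library, as TPM + 1 on a log axis; grey, blue and red points are the 2 D7 4F, 3 D21 4F and 2 D21 8F libraries. Ldhb stands at the right in all 7 libraries, and both D7 libraries lie apart from all D21 libraries for Ldhb, G6pdx, Ldha, Slc2a3, Idh2 and Aldoc.

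Between D7 4F and D21 4F, lactate dehydrogenase B, glucose-6-phosphate dehydrogenase and 3 subunit genes of the pyruvate dehydrogenase complex rose, while glucose transporter 3, aldolase C, lactate dehydrogenase A and mitochondrial Idh2 fell. In limma's moderated test on log2(TPM + 1) with Benjamini-Hochberg adjustment at 0.05, 20 of the 43 members tested were called (46.5%), 12 higher and 8 lower, against 40.6% of all genes tested (25.3% higher and 15.3% lower). The median log2 fold change was -0.00 over the members and 0.17 over all genes. The split by direction depended on how libraries were scaled. Median-of-ratios rescaling moved the median of all genes to -0.06 and gave 8 members higher and 13 lower. Quantile normalization moved it to 0.04 and gave 6 and 13, and the voom fit on recovered reads moved it to -0.32 and gave 7 and 16. A core of 14 members was called in the same direction in all 4 scalings, namely Ldhb, G6pdx, Dld, Pdha1, Fh1 and Dlat higher and Pgk1, Slc16a1, Idh3g, Gapdh, Ldha, Idh2, Aldoc and Slc2a3 lower. By role, the calls fell on 1 of 2 glucose transporters, 1 of 9 upper glycolysis genes, 3 of 5 lower glycolysis genes, 3 of 3 lactate and monocarboxylate genes, 3 of 10 genes of mitochondrial pyruvate entry and its control, 8 of 11 TCA genes and 1 of 2 pentose phosphate genes, with none on Mdh1.

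**Figure D2:**
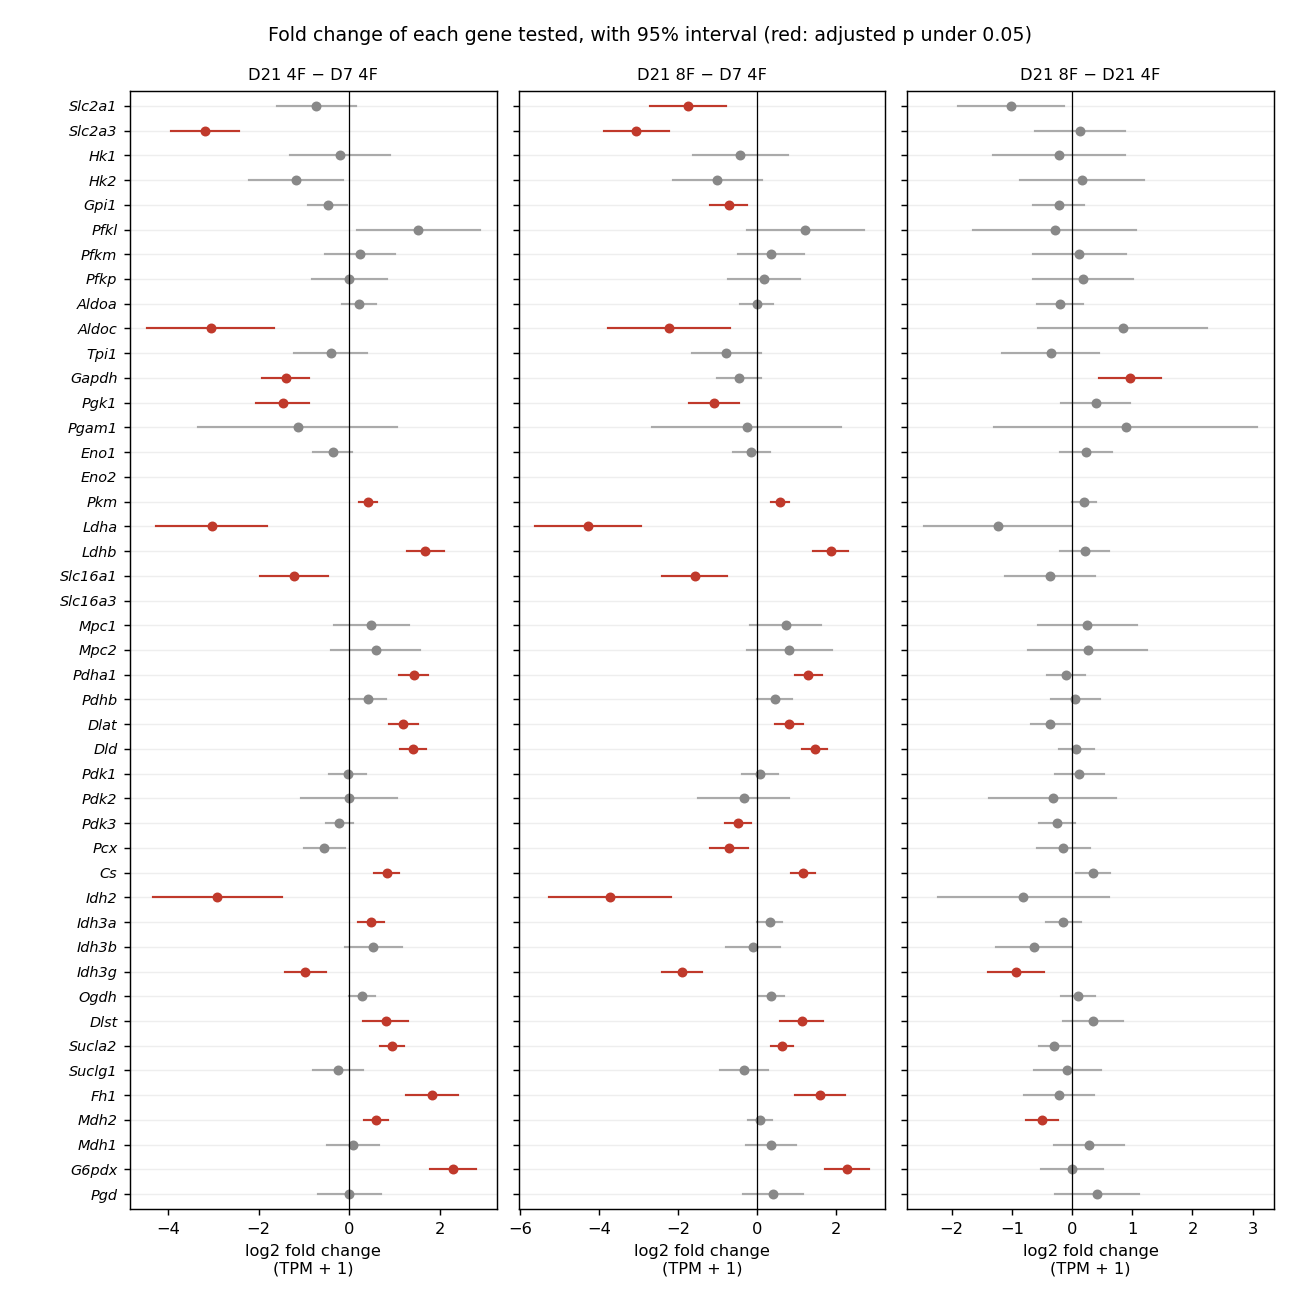
Log2 fold change of TPM + 1 for each member tested (rows), with its 95% interval, in D21 4F minus D7 4F, D21 8F minus D7 4F and D21 8F minus D21 4F; red marks an adjusted p under 0.05 in limma. The first panel has 20 red genes, the second 21 and the third 3, and each group enters 2 of the panels.

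Of the 2 glucose transporter genes in the set, the high-affinity Slc2a3 (GLUT3) fell to between 0 and 9 reads at D21, while Slc2a1 (GLUT1), the transporter of most tissues, was still at 16.7 TPM or more. Slc2a3 was at 7.67 and 9.09 TPM at D7 4F, at 0, 0 and 0.0987 TPM (0, 0 and 3 reads) at D21 4F, and at 0.213 and 0.0488 TPM at D21 8F. Both D7 libraries lay far above all D21 libraries. The log2 fold change of D21 4F over D7 4F was -3.18 (SE 0.31, adjusted p = 0.000482), on a scale that understates the change of a gene this low. Slc2a1 was at 36.6 and 94.3 TPM at D7 4F and at 32.8, 33.2 and 39.99 TPM at D21 4F. The lower D7 library lay within the D21 4F range, and the difference was not called on TPM (adjusted p = 0.165). Of the 3 other scalings, 2 called Slc2a1 lower, with log2 fold changes of -1.06, -1.20 and -1.35 over the 3.

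Of the 9 upper glycolysis genes, which take glucose to triose phosphates, Aldoc was the one called on TPM, and it fell, while Gpi1 and Hk2 were called lower under other scalings. Aldoc, the brain-type aldolase, was at 18.3 and 17.7 TPM at D7 4F and at 2.88, 0.0705 and 1.83 TPM at D21 4F, a log2 fold change of -3.06 (SE 0.59, adjusted p = 0.00685). Aldoa, the aldolase of muscle and most other tissues, was at 55.6 and 74.2 TPM at D7 4F and at 69.0, 78.6 and 76.5 TPM at D21 4F, groups that overlapped (adjusted p = 0.335). A second, short gene model that also bears the symbol Aldoa reached at most 14 reads in any library and was left out. The hexokinases, which trap glucose in the cell, were near the low end of the set. Hk2 was at 5.63 and 2.31 TPM at D7 4F and at 0.787, 1.195 and 1.28 TPM at D21 4F (adjusted p = 0.0699), with a call in 2 of the 3 other scalings (log2 fold changes of -0.93 to -2.22 over the 3), and Hk1 never passed 1.73 TPM. The phosphofructokinases Pfkl, Pfkm and Pfkp, which hold the committed step, stayed between 1.61 and 18.99 TPM. Pfkl was at 8.40 and 1.61 TPM at D7 4F and at 12.3, 18.6 and 9.97 TPM at D21 4F, with no call (adjusted p = 0.0739). Gpi1, glucose-6-phosphate isomerase, at 37.3 to 69.3 TPM, was not called on TPM (log2 fold change -0.48) but was called lower in each of the 3 other scalings (-0.82, -1.03 and -1.05). Tpi1, at 10.2 to 25.1 TPM, was called in none of the 4 scalings in this comparison.

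Lower glycolysis, which harvests ATP and NADH from triose phosphates, was divided, with Gapdh and Pgk1 falling. Gapdh, the dehydrogenase often used as a reference gene, was at 23.4 and 20.8 TPM at D7 4F and at 6.87, 8.41 and 7.85 TPM at D21 4F. Pgk1, phosphoglycerate kinase, was at 88.6 and 75.6 TPM at D7 4F and at 20.9, 31.7 and 36.5 TPM at D21 4F. Neither gene's groups overlapped, and the log2 fold changes were -1.41 (SE 0.22, adjusted p = 0.00278) for Gapdh and -1.47 (SE 0.24, adjusted p = 0.00375) for Pgk1. Of all 50-base windows of their transcripts, 53.9% for Pgk1 and 25.1% for Gapdh also occur in another annotated gene, and reads that map to both places were not kept. The same share was 25.8% for Pkm, 21.0% for Ldhb, 16.9% for G6pdx and 12.9% for Pdha1, and it was 0 for Dlat, Fh1, Idh2, Idh3a, Idh3g, Mdh2 and Sucla2. Pkm, pyruvate kinase, was the highest gene of the group at 140.0 and 142 TPM at D7 4F and 184, 189 and 185 TPM at D21 4F. Its log2 fold change of 0.40 (SE 0.08, adjusted p = 0.00941) turned to -0.22 under quantile normalization and -0.14 in the voom fit, so its direction was not settled. Pgam1 ranged from 0.813 to 18.8 TPM within D21 4F alone and was not called. Eno1, at 26.0 to 42.3 TPM over all libraries, was not called on TPM (log2 fold change -0.37) but was called lower in each of the 3 other scalings (-0.70, -0.80 and -0.94).

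Lactate dehydrogenase gave the largest contrast between 2 genes of one enzyme. Ldhb (chr6:142490249-142507957, minus strand, mm10) was at 2557 and 3064 TPM at D7 4F, at 8530, 8828 and 9423 TPM at D21 4F, and at 10316 and 10278 TPM at D21 8F. Every D21 library lay more than 2-fold above both D7 libraries, and Ldhb moved from rank 27 and 21 among all genes listed to ranks 4 to 6, holding 0.853% to 1.03% of all TPM at D21. The log2 fold change of D21 4F over D7 4F was 1.67 (SE 0.17, adjusted p = 0.000534), against a median of 0.17 over all genes. Ldha (chr7:46841475-46855627, plus strand), whose A subunit favours lactate formation in glycolytic tissues, went the other way. It was at 28.9 and 42.5 TPM at D7 4F, at 6.19, 3.55 and 1.58 TPM at D21 4F, and at 1.19 and 0.588 TPM at D21 8F. The 3 groups did not overlap, and the log2 fold change of D21 4F over D7 4F was -3.04 (SE 0.51, adjusted p = 0.00409). Slc16a1 (MCT1), a carrier of pyruvate and lactate across the plasma membrane, was at 51.8 and 96.9 TPM at D7 4F and at 40.4, 26.7 and 25.1 TPM at D21 4F, a fall of 1.21 on the log2 scale (SE 0.31, adjusted p = 0.0213). That call was lost without D7 4F replicate 2 (-0.77), without D21 4F replicate 2 (-1.13) and without D21 4F replicate 3 (-1.09).

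Because Ldha and Ldhb moved apart, the 250 bases before their annotated starts are shown beside those of G6pdx, which rose with Ldhb (RefSeq, GRCm38.p6). Capitals mark matches on either strand to the E-box CANNTG and the hypoxia response core ACGTG, which overlap wherever CACGTG is read.
Ldhb (chr6:142507958-142508207, minus strand): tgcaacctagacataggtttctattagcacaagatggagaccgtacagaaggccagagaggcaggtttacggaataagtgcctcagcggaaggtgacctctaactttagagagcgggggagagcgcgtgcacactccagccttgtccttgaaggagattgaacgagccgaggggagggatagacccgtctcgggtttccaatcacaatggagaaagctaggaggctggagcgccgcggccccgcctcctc
Ldha, upstream start (chr7:46845554-46845803, plus strand): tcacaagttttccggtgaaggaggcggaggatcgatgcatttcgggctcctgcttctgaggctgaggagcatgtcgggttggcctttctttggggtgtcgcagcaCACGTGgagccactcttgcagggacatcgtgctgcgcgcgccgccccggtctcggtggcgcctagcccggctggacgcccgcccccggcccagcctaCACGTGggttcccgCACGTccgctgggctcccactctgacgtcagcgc
Ldha, second start (chr7:46846832-46847081, plus strand): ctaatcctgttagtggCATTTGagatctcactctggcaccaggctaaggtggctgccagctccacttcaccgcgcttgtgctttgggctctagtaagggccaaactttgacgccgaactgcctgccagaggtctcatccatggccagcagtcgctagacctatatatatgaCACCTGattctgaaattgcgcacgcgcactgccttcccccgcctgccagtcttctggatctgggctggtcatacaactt
G6pdx (chrX:74428881-74429130, minus strand): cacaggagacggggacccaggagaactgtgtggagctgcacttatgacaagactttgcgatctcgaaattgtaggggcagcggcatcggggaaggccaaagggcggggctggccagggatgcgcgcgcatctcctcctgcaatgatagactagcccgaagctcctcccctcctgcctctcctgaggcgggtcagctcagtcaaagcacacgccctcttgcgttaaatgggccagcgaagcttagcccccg
The upstream Ldha start holds CACGTG at 2 places and a further match to the core near its start, the second Ldha start holds 2 E-boxes without the core, and the Ldhb and G6pdx stretches shown hold neither motif, though G6pdx has a match to the core outside the stretch, at or after its start. RefSeq gives 2 Ldha starts, and the gene-level table cannot tell which of them was used. The bases just after the upstream Ldha start are in no GENCODE vM21 transcript of Ldha, and those after the second start are in 1. In GENCODE, Ldha begins upstream of both stretches, at chr7:46841475, and the G6pdx stretch lies inside the span of G6pdx. Over the 64 promoters of the 43 members found in the RefSeq table (250 bases before to 50 after the start), 43.8% held ACGTG against 19.6% of all 32851 promoters. The E-box was found in 70.3% against 72.3%, the NOBOX element TAATTG in 6.25% against 8.0%, and the TATA box TATAAA in 3.12% against 13.6%. These are counts of letters with no test, and they say nothing of binding.

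In mitochondrial pyruvate entry 3 subunit genes of the pyruvate dehydrogenase complex rose, and no kinase gene was called on TPM, although Pdk3 was called lower in each of the 3 other scalings. Pdha1, the catalytic E1 alpha subunit, was at 30.8 and 33.3 TPM at D7 4F and at 78.1, 86.7 and 97.96 TPM at D21 4F. Dlat, the E2 acetyltransferase, was at 19.9 and 21.9 TPM at D7 4F and at 50.6, 45.7 and 50.9 TPM at D21 4F. Dld, the E3 dehydrogenase shared with the 2-oxoglutarate complex, was at 84.7 and 70.0 TPM at D7 4F and at 218, 197 and 200.2 TPM at D21 4F. All 3 genes lay higher in every D21 4F library than in either D7 library, with log2 fold changes of 1.42 (SE 0.13, adjusted p = 0.000402) for Pdha1, 1.19 (SE 0.13, adjusted p = 0.000839) for Dlat and 1.40 (SE 0.12, adjusted p = 0.000309) for Dld. Pdhb, the E1 beta subunit, was at 24.7 and 33.9 TPM at D7 4F and at 36.8, 38.2 and 41.2 TPM at D21 4F and was not called (adjusted p = 0.103). Pdhx, a further subunit gene of the complex outside the set, was not called on TPM either (log2 fold change 0.435, adjusted p = 0.161). Among the kinases that switch the complex off, Pdk3 was the main gene at 187 and 172 TPM at D7 4F and at 139, 154 and 169 TPM at D21 4F (log2 fold change -0.22, adjusted p = 0.207). The other scalings gave -0.56, -0.82 and -0.76 for Pdk3. Pdk1 was at 23.1 to 30.0 TPM and Pdk2 at 4.75 to 11.9 TPM over all libraries, and neither was called in any comparison on TPM, with Pdk1 called lower between D7 4F and D21 4F in 1 other scaling (-0.36 to -0.56 over the 3). The mitochondrial pyruvate carrier genes Mpc1 (7.34 to 19.4 TPM) and Mpc2 (2.82 to 9.98 TPM) were not called either. Pcx, pyruvate carboxylase, which feeds oxaloacetate to the cycle, was at 51.9 and 39.2 TPM at D7 4F and at 27.7, 30.4 and 33.6 TPM at D21 4F (log2 fold change -0.55, adjusted p = 0.0534). Each of the 3 other scalings called Pcx lower (-0.88, -1.03 and -1.09).

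Of the 11 TCA genes, 6 rose and 2 fell, and Fh1 was the one rise called in all 4 scalings. Fh1, fumarase, was at 21.0 and 27.6 TPM at D7 4F and at 63.9, 102 and 103 TPM at D21 4F, a log2 fold change of 1.82 (SE 0.24, adjusted p = 0.00156). Cs, citrate synthase, was at 51.0 and 53.2 TPM at D7 4F and at 101, 87.2 and 91.3 TPM at D21 4F, a log2 fold change of 0.82 (SE 0.12, adjusted p = 0.00203). Sucla2, the ATP-forming succinyl-CoA ligase subunit, was at 65.4 and 73.2 TPM at D7 4F and at 129, 140 and 131 TPM at D21 4F, a log2 fold change of 0.94 (SE 0.11, adjusted p = 0.000899). Cs fell to 0.23 under quantile normalization and 0.29 in the voom fit, and Sucla2 to 0.31 under quantile normalization, each losing its call there. Dlst, the E2 subunit of the 2-oxoglutarate complex, had a log2 fold change of 0.80 (adjusted p = 0.0225), and its call was lost without D7 4F replicate 2 (0.65), without D21 4F replicate 1 (0.67) or 3 (0.76), and under each of the 3 other scalings. Mdh2, mitochondrial malate dehydrogenase, and Idh3a, the catalytic Idh3 subunit, had log2 fold changes of 0.59 (adjusted p = 0.00687) and 0.47 (adjusted p = 0.0208), but quantile normalization turned them to -0.04 and -0.14, and the voom fit turned Idh3a to -0.06. The call on Idh3a was also lost without D7 4F replicate 2 (0.43) and without either D21 8F library (0.47).

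Both falls among the members of the cycle were of isocitrate dehydrogenase genes. Idh2, the mitochondrial NADP-dependent form, was at 26.2 and 28.3 TPM at D7 4F, at 0.825, 5.43 and 3.50 TPM at D21 4F, and at 1.72 and 0.684 TPM at D21 8F. Every D21 library lay below both D7 libraries, and the log2 fold change of D21 4F over D7 4F was -2.91 (SE 0.59, adjusted p = 0.00861). Idh3g, the regulatory gamma subunit of the NAD-dependent form, was at 33.0 and 39.9 TPM at D7 4F and at 17.7, 17.4 and 19.2 TPM at D21 4F, a log2 fold change of -0.97 (SE 0.19, adjusted p = 0.00793). Leaving out D7 4F replicate 2 ended that call (-0.84). Outside the set, Suclg2, a succinyl-CoA ligase beta gene named here after its values were seen, also fell. It was at 24.2 and 42.4 TPM at D7 4F and at 19.3, 16.0 and 16.8 TPM at D21 4F. Its log2 fold change was -0.85 (adjusted p = 0.0443 in limma), and this call was not followed through the alternative settings. Ogdh (85.6 to 125 TPM), Idh3b (15.7 to 33.7 TPM) and Suclg1 (18.5 to 31.4 TPM) were not called on TPM, with Suclg1 called lower in 1 other scaling (-0.57 to -0.83 over the 3), and the cytosolic malate dehydrogenase Mdh1, at 34.8 to 62.9 TPM, was called in none of the 3 comparisons.

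In the oxidative pentose phosphate branch, which makes NADPH, the first enzyme rose and the later one was not called. G6pdx (chrX:74409483-74429194, minus strand) was at 70.4 and 121 TPM at D7 4F, at 432, 471 and 460 TPM at D21 4F, and at 462 and 444 TPM at D21 8F. All 5 D21 libraries were more than 3-fold above the higher D7 library. The log2 fold change of D21 4F over D7 4F was 2.29 (SE 0.21, adjusted p = 0.000402), the largest rise among the members on TPM, whereas under quantile normalization that of Ldhb was larger (2.06 against 1.71). Pgd, 6-phosphogluconate dehydrogenase, was at 13.3 and 11.05 TPM at D7 4F and at 9.50, 16.9 and 11.02 TPM at D21 4F, and its log2 fold change of -0.00 had a 95% interval from -0.70 to 0.69. G6pdx shares 13.6% of its exon length with Ikbkg, whose reads cannot be told apart there since the counting is not stated to have used strand. The same limit holds for Mpc1 (23.1% with 4930506C21Rik), Pdha1 (16.1% with Map3k15) and Pkm (15.3% with Gm49759), whose overlaps are larger.

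**Figure D3:**
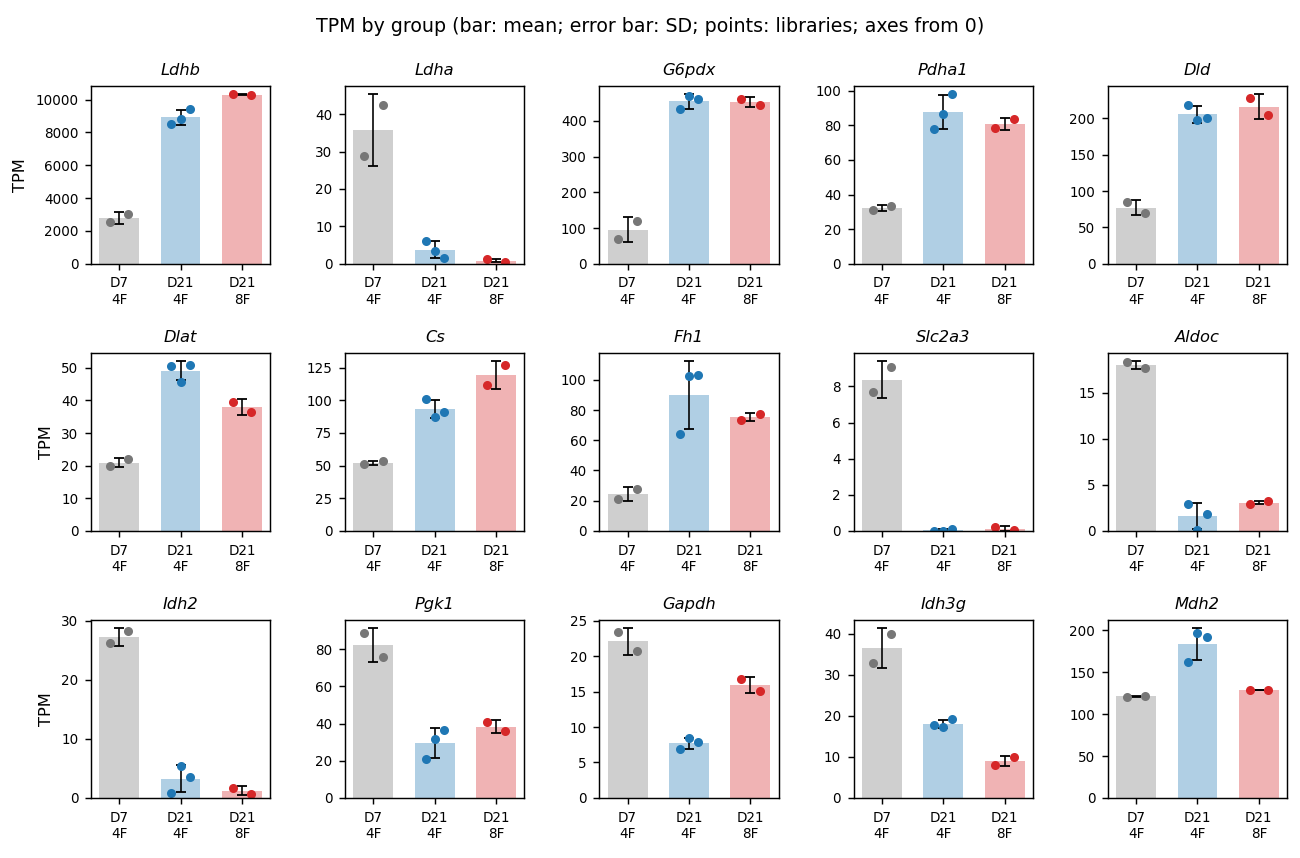
TPM of 15 members by group; bars are means, error bars 1 SD, points single libraries (n = 2, 3 and 2), and each axis starts at 0 with its own range. Ldhb, G6pdx, Pdha1, Dld, Dlat, Cs and Fh1 stand higher at D21, Ldha, Slc2a3, Aldoc, Idh2, Pgk1 and Idh3g lower, and Gapdh and Mdh2 differ between 4F and 8F at D21.

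The share of each gene within its enzyme family depends on no scaling between libraries. Ldhb held 98.3% and 98.8% of the summed TPM of Ldha, Ldhb and the testis-type Ldhc at D7 4F, and 99.6% to 99.8% at D21. The log2 ratio of Ldha to Ldhb, with 1 added to each TPM value, was -6.42 and -6.14 at D7 4F, -10.2, -10.9 and -11.8 at D21 4F, and -12.2 and -12.7 at D21 8F. Its groups did not overlap, and the exact permutation test, two-sided, gave p = 0.2 for D21 4F against D7 4F, the smallest it can give with 3 and 2 libraries. Across 15 gene pairs, 3 of them added after the values were seen (Idh3a to Idh3g, Pdha1 to Pdk3 and G6pdx to Pgd), and 3 comparisons (45 tests), the exact p-values, at least 0.2 or 0.333 by design, gave no adjusted value below 0.545. Slc2a1 went from 82.7% and 91.2% of the 2 glucose transporters at D7 4F to 98.7% or more at D21, and Aldoa from 75.3% and 80.8% of the 2 aldolases to 94.9% or more. Idh2 made up 34.6% and 29.6% of Idh1 plus Idh2 at D7 4F, and 0.612% to 5.93% at D21. Part of that shift was a rise of Idh1, from 49.6 and 67.4 TPM at D7 4F to 114, 86.1 and 130 TPM at D21 4F. Its log2 fold change was 0.90 (adjusted p = 0.014 in limma). Pdk3 held 82.5% and 85.4% of the 3 kinases at D7 4F, 79.7%, 80.5% and 85.2% at D21 4F, and 81.7% and 76.5% at D21 8F, so that D21 4F overlapped both other groups and D21 8F lay below D7 4F. Of the added pairs, the log2 ratio of Pdha1 to Pdk3 was -2.56 and -2.33 at D7 4F and -0.82, -0.82 and -0.78 at D21 4F, and that of G6pdx to Pgd was 2.32 and 3.34 against 5.37, 4.72 and 5.26.

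**Figure D4:**
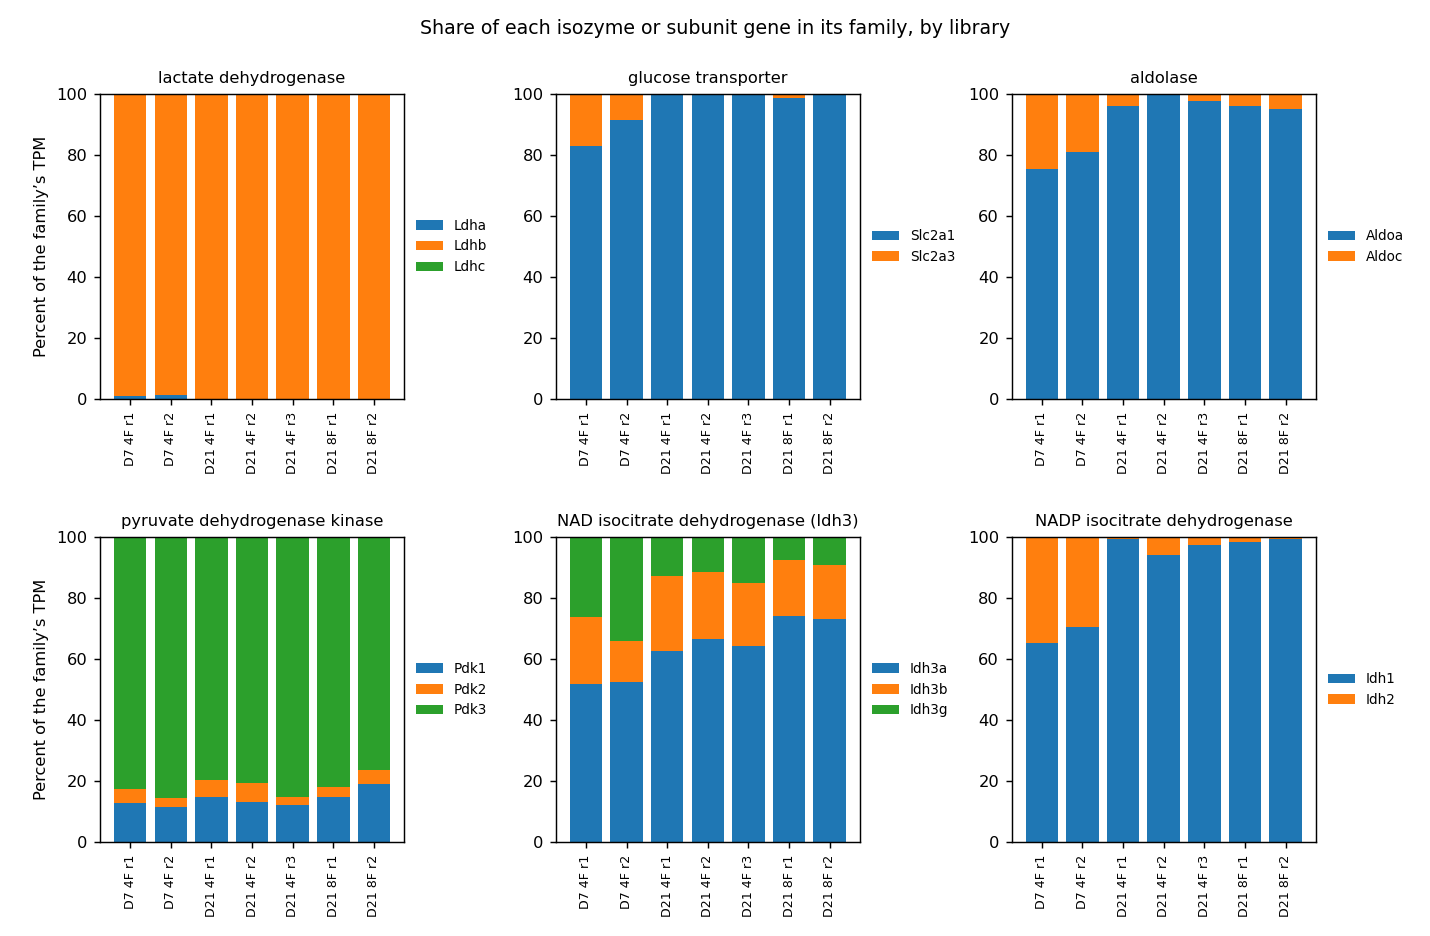
Share (percent of the family's summed TPM) of each isozyme or subunit gene in 6 enzyme families, 1 stacked bar per library. Ldhb fills its family throughout, Slc2a3, Aldoc and Idh2 shrink at D21, Idh3g shrinks from 26.2% and 34.2% at D7 4F to 7.45% and 9.22% at D21 8F, and Pdk3 leads the kinases in all 7 libraries.

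At day 21, 3 members were called between the factor sets, with Gapdh higher and Idh3g and Mdh2 lower in 8F than in 4F. The 3 calls among 43 members (6.98%) stand against 8.37% of all genes (3.95% higher and 4.41% lower), and the median log2 fold change was -0.01 over the members and 0.06 over all genes. Gapdh was at 6.87, 8.41 and 7.85 TPM in D21 4F and at 16.7 and 15.1 TPM in D21 8F, a log2 fold change of 0.96 (SE 0.22, adjusted p = 0.0449). Idh3g was at 17.7, 17.4 and 19.2 TPM in D21 4F and at 8.07 and 9.96 TPM in D21 8F, a log2 fold change of -0.94 (SE 0.19, adjusted p = 0.035). Mdh2 was at 162, 196 and 192 TPM in D21 4F and at 129 and 129 TPM in D21 8F, a log2 fold change of -0.50 (SE 0.11, adjusted p = 0.0452). The groups of these genes did not overlap, but every call sat close to the threshold and was lost in 8 to 11 of 18 alternative settings, and none of the 3 was called in all 4 scalings. The voom fit, which moved the median of all genes to 0.27, called 4 members, all higher, namely Gapdh (1.21), Cs (0.50), Ldhb (0.37) and Pkm (0.35). Slc2a1 and Ldha had larger differences on TPM, with groups that did not overlap, but neither was called in any of the 4 scalings (log2 fold changes of -1.01, adjusted p = 0.166, and -1.23, adjusted p = 0.222). Leaving out either D21 8F library ended all 3 calls, with Gapdh at 0.89 and 1.03, Idh3g at -0.80 and -1.07, and Mdh2 at -0.50 both times. Without D21 4F replicate 1, 2 or 3 Gapdh (0.89, 1.02 and 0.97) and Idh3g (-0.95, -0.96 and -0.90) lost theirs, Mdh2 lost its call without replicate 2 (-0.45) or 3 (-0.47), and Gapdh also without either D7 4F library (0.96). For G6pdx the difference between 8F and 4F was -0.01 on the log2 scale, with a 95% interval from -0.52 to 0.51, and for Ldhb it was 0.21, from -0.20 to 0.61. The values of 4F libraries carry up to 9 decimals and those of 8F libraries up to 17, so the way a column was written and the factor set cannot be told apart.

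D21 8F was also set against D7 4F, where 21 of 43 members were called (48.8%), 10 higher and 11 lower, beside 37.2% of all genes (24.2% higher and 13% lower). The members called higher and lower were 8 and 12 under median-of-ratios rescaling, 8 and 13 under quantile normalization, 7 and 14 in the voom fit, and 13 and 6 without D7 4F replicate 1. Without D21 8F replicate 1 or 2 the count fell to 13 or 12. Since the D7 libraries serve both comparisons, their calls are not independent. Ldhb, G6pdx, Pdha1, Dld and Fh1 had log2 fold changes of 1.88, 2.28, 1.31, 1.47 and 1.60, with adjusted p from 0.000508 for Dld to 0.00458 for Fh1. Ldha, Idh2, Slc2a3 and Idh3g had log2 fold changes of -4.27, -3.72, -3.05 and -1.90, with adjusted p from 0.00104 for Idh3g to 0.00568 for Idh2. Slc2a1, at 16.7 and 17.1 TPM in D21 8F, was called lower here (log2 fold change -1.74, adjusted p = 0.0159), as were Gpi1 (-0.71, adjusted p = 0.03), Pcx (-0.69, adjusted p = 0.0359) and Pdk3 (-0.47, adjusted p = 0.0361). Those 4 calls were each lost without D21 8F replicate 1 or without replicate 2, giving -1.73 and -1.76 for Slc2a1, -0.72 and -0.69 for Gpi1, -0.56 and -0.83 for Pcx and -0.57 and -0.37 for Pdk3. Gpi1 also lost its call without D7 4F replicate 2 (-0.55), Pcx without D7 4F replicate 1 (-0.50) or D21 4F replicate 2 (-0.69), and Pdk3 without D7 4F replicate 1 (-0.41), D7 4F replicate 2 (-0.53) or D21 4F replicate 2 (-0.47). Gapdh was not called against D7 4F on TPM (log2 fold change -0.45, adjusted p = 0.188) but was called lower in each of the 3 other scalings (-0.76, -0.74 and -0.85). Mdh2 (0.09, adjusted p = 0.626) and Idh3a (0.33, adjusted p = 0.0977) were not called on TPM either, and Mdh2 turned to -0.24, -0.48 and -0.30 in the other scalings, with a call in 1 of them.

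The genes around the set, a list of 63 further isozymes, regulators and neighbouring enzymes of which 54 were tested, had 28 called between D7 4F and D21 4F (51.9%), 23 higher and 5 lower, against 40.6% of all genes (25.3% higher and 15.3% lower). The median log2 fold change was 0.60 over the list and 0.17 over all genes. For this list the split by direction was counted on TPM alone. Of all genes called, 62.3% were higher on TPM. That share was 48.6% after median-of-ratios rescaling, 52% under quantile normalization and 37.5% in the voom fit. Bpgm, which makes 2,3-bisphosphoglycerate beside lower glycolysis, was at 164 and 224 TPM at D7 4F and at 1328, 1273 and 1215 TPM at D21 4F (log2 fold change 2.72, adjusted p = 7.47e-05). That level was higher than any of the 45 members except Ldhb. Me1, the cytosolic malic enzyme, which yields pyruvate and NADPH, was at 12.6 and 19.8 TPM at D7 4F and at 211, 180.0 and 178 TPM at D21 4F (log2 fold change 3.50, adjusted p = 7.92e-05). Neither gene's groups overlapped, and D21 8F libraries were at 1239 and 1324 TPM for Bpgm and at 290 and 271 TPM for Me1.

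The other rises among the 10 largest changes of that list were smaller in TPM. Pdha2, the testis-type E1 alpha gene, was at 0 and 0.0814 TPM at D7 4F and at 3.90, 8.91 and 7.70 TPM at D21 4F (log2 fold change 2.85, adjusted p = 0.00281). H6pd, the glucose-6-phosphate dehydrogenase of the endoplasmic reticulum, had a log2 fold change of 2.46 (adjusted p = 0.00303), Lipt1, a lipoyl transferase, one of 2.21 (adjusted p = 0.000365), and Ldhc one of 2.20 (adjusted p = 0.00788). Fbp1, a gluconeogenic phosphatase, rose by 1.85 (adjusted p = 0.00745) and Egln3, an oxygen-sensing hydroxylase listed at 0 in both D7 libraries, by 1.99 (adjusted p = 0.0401) on the same scale. Pfkfb4, which makes the activator of phosphofructokinase, and Pgam2, the muscle phosphoglycerate mutase, fell, with log2 fold changes of -2.35 (adjusted p = 0.00359) and -1.92 (adjusted p = 0.0197). Pfkfb3, which makes the same activator and is named here after its values were seen, rose from 14.5 and 19.5 TPM at D7 4F to 51.97, 37.8 and 32.9 TPM at D21 4F (log2 fold change 1.21, adjusted p = 0.00726). Egln3 lost its call without any one D7 4F or D21 8F library (1.99 each time), and Pgam2 without D7 4F replicate 1 (-2.14) or 2 (-1.69) or D21 4F replicate 1 (-1.81). Pgam2 also lost its call under quantile normalization, and Fbp1 in the voom fit.

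Of the 8 genes of the hypoxia-inducible factor pathway, 4 (50%) were called higher and 0 lower between D7 4F and D21 4F, beside 25.3% and 15.3% of all genes. Between D7 4F and D21 8F, 3 (37.5%) were called higher and 0 lower, beside 24.2% and 13% of all genes. Both counts are on TPM alone. Egln3, called in both comparisons, lost its call in 9 of 18 alternative settings in the first and 7 of 18 in the second. At day 21, 2 of the 54 listed genes were called between 8F and 4F, both lower (3.7%), against 8.37% of all genes (3.95% higher and 4.41% lower), namely Bsg, basigin, the chaperone of the monocarboxylate carriers, and Arnt, the partner of hypoxia-inducible factors. Bsg was at 393, 434 and 491 TPM in D21 4F and at 225 and 196 TPM in D21 8F (log2 fold change -1.05, adjusted p = 0.015), and its call was lost without D21 8F replicate 1 (-1.15) or 2 (-0.95). Arnt was at 71.6, 72.1 and 63.6 TPM in D21 4F and at 41.7 and 49.1 TPM in D21 8F (log2 fold change -0.60, adjusted p = 0.0486), a call lost whenever any D21 library was left out, with values from -0.71 to -0.48.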

How the data were processed

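RNA of 7 mini-oocyte pools was measured with a SMART-seq stranded kit. Per the study's methods, the authors clipped reads (Trim Galore), mapped them to mm10 (HISAT2), discarded rRNA reads (bedtools) and multiply mapped ones, and counted exon reads (featureCounts, GENCODE vM25); a read over several genes was split between them, and no strand option is stated. Read pairs had 2 lengths on 2 instruments, and which library had which is not given in the sources used here. The deposited table holds TPM values, so the authors' count test (edgeR) could not be repeated on counts as deposited.

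The members and the accompanying lists were chosen with earlier results of these data known. TPM values were tested as log2(TPM + 1) with limma 3.58.1 (R 4.3.3), an intensity trend, the 3 groups sharing one spread, genes kept if 2 or more libraries reached 1 TPM, and Benjamini-Hochberg adjustment at 0.05. Named are all members by role, with each library's value for those called between factor sets, the 12 largest called changes between days, isozyme pairs and 5 step markers (Gapdh, Pkm, Pdha1, Cs, G6pdx); listed neighbours are named if called between factor sets or among the 10 largest day changes. A few neighbours outside this rule were named after their values were seen. Reads were recovered from TPM steps and exon lengths (GENCODE vM21, 99.5% of genes matched). The fit was tested on simulated data. Isozyme ratios were tested by exact permutation (scipy 1.17.1). Alternatives were other pseudocounts, filters, scalings, variance settings, a replicate block and leaving out each library. The 95% intervals of fold changes come from the limma fit, hence from the spread between libraries, and floors given as reads cover counting error only.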

Additional observations from a re-analysis of the deposited data

How the results depend on the processing

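Over up to 18 alternatives per result, 35 of the 66 called fold changes of members and listed neighbours kept their call in every one; in all, 1021 of 1177 settings kept the call, 151 lost it and 5 turned the direction. The turned values, all for D21 4F against D7 4F, were -0.04 (Mdh2), -0.14 (Idh3a) and -0.22 (Pkm) under quantile normalization, and -0.06 (Idh3a) and -0.14 (Pkm) in the voom fit. That fit was added after the data were seen, on reads recovered from TPM steps (86.9% to 91.8% of low values were whole within 0.02), and called 8932 genes against 8847 on TPM; the cause of the differences was not tested. Members called between factor sets numbered 3 (1 higher, 2 lower), and 1 under quantile normalization, 1 without the variance trend, 4 with array weights (1 higher, 3 lower), 4 in the voom fit (4 higher, 0 lower) and 0 to 3 with 1 library left out. Of all genes tested, 1822 were called between factor sets, and 994 without the trend, 164 with a replicate block, 3572 with array weights, and 86 and 98 without D21 8F replicate 1 or 2. Between D21 8F and D7 4F the 21 members called became 12 to 21 with 1 library left out, the lowest counts being 13 and 12 without D21 8F replicate 1 or 2, where 3777 and 3642 of all genes were called in place of 8103. Between D21 4F and D7 4F leaving out 1 library gave 19 to 22 members.

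With the replicate number as a block, members called were 16 between D21 4F and D7 4F, 0 between D21 8F and D21 4F and 17 between D21 8F and D7 4F. Deviations of same-numbered libraries correlated between -0.04 and 0.01, and those of differently numbered ones between -0.02 and 0.04. In a group of 2 libraries the deviations mirror each other. The correlations therefore cannot decide whether same-numbered libraries shared a culture or a run. A call lost under the block is not a smaller effect.

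With groups of 2 or 3 libraries and estimated depths from 9506135 reads, members under 1 TPM rest on few reads, and differences among them were not detectable at this depth.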
